A study of Mus musculus with 16 samples.

Results

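Rab GTPases are small membrane-bound switches that direct vesicles between the compartments of a cell, and the arrays carried probes for 55 of their genes. Members were the genes whose symbol in the deposited annotation is Rab followed by a number and at most one letter and one further digit, with no effector or regulator included. They were read by 84 of 25697 probes and make up 55 of 17914 genes. The files' symbols Rab6 and Rab7l1 are written here as the current Rab6a and Rab29, and Rab1 was kept as the files give it.

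A Rab protein carries a lipid anchor and sits on a membrane while it holds GTP. Exchange factors (GEFs) load GTP, GTPase-activating proteins (GAPs, mostly with a TBC domain) end the signal, and GDP dissociation inhibitors take the protein back into the cytosol. Each compartment carries its own set: Rab1 and Rab2 between endoplasmic reticulum and Golgi, Rab5 on early endosomes, Rab4 and Rab11 on recycling endosomes, Rab7 on late endosomes, and Rab3 and Rab27 on secretory vesicles. In sensory neurons these routes carry receptors, signalling endosomes and membrane along the axon.

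The arrays (Illumina Mouse Ref-8 v2.0 BeadChips) held RNA of embryonic day 13 dorsal root ganglion cultures from CD-1 mice, grown as spots. Lentivirus was added on day 4 and the axons of the injured spots were severed on day 7. The overexpression group (4 arrays: 1 uninjured, 2 at 3 h and 1 at 12 h after axotomy) received the FUGW lentiviral vector with human HIF-1α, which expresses it all the time. The knockdown group (6 arrays, 2 at each time) received MISSION hairpins against HIF-1α. The control group (6 arrays, 2 at each time) received a control hairpin, so the overexpression vector has no empty-vector control of its own. HIF-1α is the subunit of the hypoxia-inducible transcription factor that oxygen destabilises, and the design asks which genes follow its level in uninjured and in cut cultures. Whole cultures were measured, so fewer cells of a type and less RNA per cell cannot be told apart. The labels do not say that replicates came from separate cultures, so the spread that enters the p-values may be technical only. Each construct may also have been its own virus preparation, and construct and preparation cannot be told apart.

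Values are the deposited intensities in arbitrary units, already background-subtracted and running from -21.7 to 40785. A probe counted as above background over 16, and 47.8 to 47.9% of probes passed on each array, with array medians of 13.3 to 13.5. Arrays of different constructs correlated at 0.918 to 0.954 over all tested genes, against 0.994 to 0.996 for arrays of the same construct and time. The mouse Hif1a probe averaged 0.721 ± 4.44 on overexpression arrays (SD, n = 4), -2.64 ± 3.76 on knockdown arrays (SD, n = 6) and 30.0 ± 7.96 on control arrays (SD, n = 6). It was above 16 on all 6 control arrays and on 0 of the others, and whether it reads the human cDNA was not tested, so it does not check the overexpression label. Neuronal markers, read to check the tissue label, were present: Prph, Stmn2, Isl1, Avil, Pou4f1 and Tubb3 passed the filter, 6 of the 7 on the array. They summed to 21212 to 23131 on overexpression arrays, 40203 to 43259 on knockdown arrays and 39687 to 46459 on control arrays. Of the markers of Schwann cells and satellite glia, Ngfr, which sensory neurons also express, averaged 7715 ± 572 on overexpression arrays (SD, n = 4), 7999 ± 715 on knockdown arrays and 18326 ± 1248 on control arrays (SD, n = 6 each). S100b was above 16 on 0 overexpression, 4 knockdown and 6 control arrays. Dhh moved the other way: it was above 16 on 0 control arrays and at least 5.15-fold higher with overexpression and at least 6.15-fold higher with knockdown. Sox10, Fabp7 and Erbb3 did not pass the filter. Fibroblast markers (Dcn, Pdgfra and Vim of 8; Col1a1 was among those not passing) summed to 2992 to 3389 on overexpression arrays, 6847 to 8566 on knockdown arrays and 4211 to 4767 on control arrays. Endothelial markers (3 of 6) summed to at most 70.6 on any array, and macrophage markers (2 of 7, without Cd68 and Ptprc) to at most 293. These cell markers moved with the constructs alongside the Rab genes, and their part in the Rab differences was not tested.

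Of the 55 Rab genes, 48 had a probe above 16 on at least 2 arrays and were tested, 39 of them above 16 on all 16 arrays. The other 7 (Rab2b, Rab3c, Rab19, Rab25, Rab30, Rab38 and Rab40b) reached 16.7 at most and are not described further. Log2 differences below come from limma on intensities to which an offset of 50 was added, which makes changes of dim probes look smaller. Adjusted p-values are limma's with Benjamini-Hochberg adjustment over 11151 genes, and a gene is said to have risen or fallen where its adjusted p is under 0.05. Fold changes are those of the offset scale unless given as bounds.

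Rab24 and Rab27a stood above the control with HIF-1α overexpression and below it with knockdown. Rab24, a divergent Rab tied to autophagy, had intensities of 3578 (uninjured), 3562 and 4154 (3 h) and 4033 (12 h) on the overexpression arrays. It ran from 481 over a median of 530 to 720 on the knockdown arrays, and from 1077 over a median of 1230 to 1276 on the control arrays. The 3 constructs did not overlap at any point. Rab24 was 3.04-fold higher with overexpression than in the control (log2 1.60, SE 0.0929, adjusted p = 4.44e-12) and 2.04-fold lower with knockdown (log2 -1.03, SE 0.0804, adjusted p = 4.42e-10). Overexpression against knockdown gave 6.19-fold (log2 2.63, adjusted p = 9.78e-16). The gap to the control held at each time: 1.60, 1.59 and 1.62 for overexpression, and -1.04, -0.91 and -1.12 for knockdown, uninjured and at 3 h and 12 h. The gene has 3 probes, and all of them moved alike, by 1.60 to 1.70 with overexpression and by -1.03 to -0.94 with knockdown.

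Rab27a, which docks lysosome-related and secretory vesicles at the plasma membrane, had intensities of 642, 722, 653 and 705 on the overexpression arrays. Its knockdown arrays ran from 38.5 over a median of 49.0 to 63.8 and its control arrays from 137 over a median of 197 to 251, again with no overlap. The differences were 2.87-fold higher with overexpression (log2 1.52, SE 0.0905, adjusted p = 7.05e-12) and 2.23-fold lower with knockdown (log2 -1.16, SE 0.0784, adjusted p = 4e-11), and 6.40-fold between overexpression and knockdown. Without the offset, with intensities floored at 16, the knockdown difference was -1.97. The close relative Rab27b was dim (9.96 to 26.9 on overexpression arrays, 1.38 to 15.9 with knockdown, 8.90 to 29.3 in the control). Rab27b fell by 0.19 with knockdown (adjusted p = 0.0253) and differed by -0.02 with overexpression (adjusted p = 0.886).

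Rab28, a farnesylated Rab of the ciliary region, shared the order of Rab24 and Rab27a, but most of its difference lay on the knockdown side. Its intensities were 2114, 2261, 2386 and 2225 with overexpression, ran from 631 over a median of 661 to 761 with knockdown, and from 1653 over a median of 1857 to 1986 in the control. The knockdown level was 2.57-fold lower (log2 -1.36, SE 0.0629, adjusted p = 8.51e-14) and the overexpression level 0.27 higher on the log2 scale (SE 0.0727, adjusted p = 0.00343). The overexpression difference was 0.20 (adjusted p = 0.0596) without the 12 h overexpression array. Both Rab28 probes moved alike.

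Overexpression arrays above every control array, with knockdown arrays below every control array, were found for 5 of the 48 Rab genes (10.4%), against 3.21% of all genes. Beside Rab24, Rab27a and Rab28 these were Rab33a, a Golgi Rab abundant in neurons, and Rab39, linked to endosomes and autophagy. Rab33a had intensities of 5039, 4456, 5316 and 4620 with overexpression, 2838 to 3022 with knockdown and 3088 to 3596 in the control. Rab39 had 245, 160, 212 and 219 with overexpression, 92.2 to 117 with knockdown and 120 to 160 in the control, where the highest control array came close to the lowest overexpression array. The opposite order, knockdown above control above overexpression, held for Rab2a and Rab3b (4.17%, against 3.75% of all genes). The plot of single arrays shows the genes that separated the constructs.

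**Figure D1:**
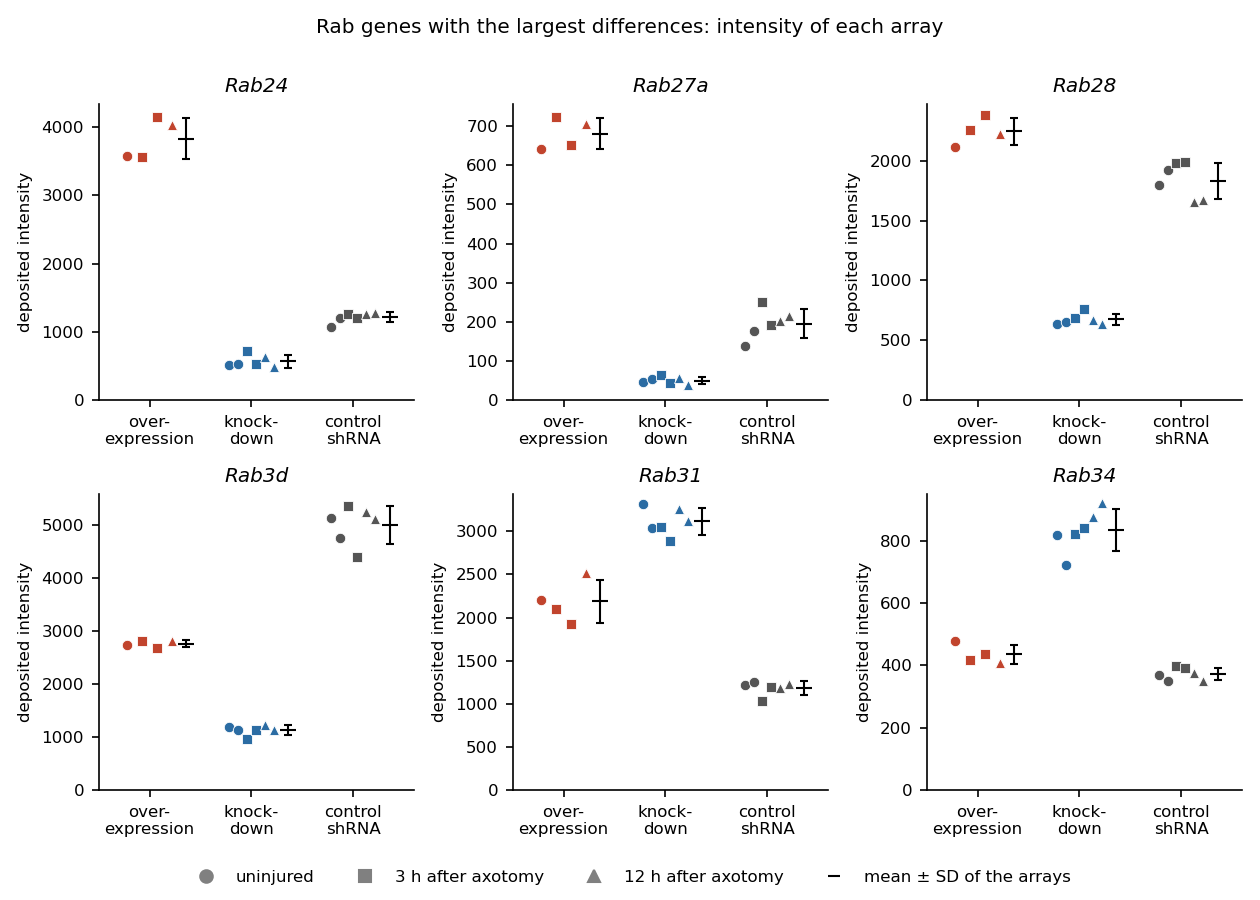
Deposited intensity of single arrays for Rab24, Rab27a, Rab28, Rab3d, Rab31 and Rab34, on a linear axis from 0 in arbitrary units, with overexpression (4 arrays), knockdown (6) and control (6) from left to right. Circles are uninjured cultures, squares 3 h and triangles 12 h after axotomy, and the bar is the mean ± SD of a construct's arrays. Rab24 lies between 3562 and 4154 on the overexpression arrays, between 481 and 720 on the knockdown arrays and between 1077 and 1276 on the control arrays.

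The promoter windows of the 3 genes with the largest overexpression-over-knockdown differences are printed because these genes shared an order across the constructs. They are RefSeq sequences of build GRCm38.p6, from 250 bases before to 50 after an annotated start, 5′ to 3′ on the gene's strand. Capitals mark ACGTG or GCGTG on either strand (CACGT or CACGC on the printed one); a CACGTG counts on both strands. These letters are the core of the hypoxia response element.
Rab24, chr13:55321931-55322230, minus strand: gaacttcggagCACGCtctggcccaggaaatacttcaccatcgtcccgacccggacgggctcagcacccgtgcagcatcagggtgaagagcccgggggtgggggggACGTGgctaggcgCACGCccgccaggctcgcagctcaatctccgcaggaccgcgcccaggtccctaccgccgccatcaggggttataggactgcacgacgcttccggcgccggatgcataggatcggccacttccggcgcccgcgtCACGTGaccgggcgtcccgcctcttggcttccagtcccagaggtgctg
Rab27a, chr9:73044560-73044859, plus strand: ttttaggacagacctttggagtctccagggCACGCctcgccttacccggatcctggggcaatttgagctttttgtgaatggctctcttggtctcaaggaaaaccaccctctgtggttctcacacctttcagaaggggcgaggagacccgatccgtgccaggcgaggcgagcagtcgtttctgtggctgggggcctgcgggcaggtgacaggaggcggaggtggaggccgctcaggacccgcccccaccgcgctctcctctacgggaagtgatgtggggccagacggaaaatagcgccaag
Rab27a, a second start, chr9:73063898-73064197, plus strand: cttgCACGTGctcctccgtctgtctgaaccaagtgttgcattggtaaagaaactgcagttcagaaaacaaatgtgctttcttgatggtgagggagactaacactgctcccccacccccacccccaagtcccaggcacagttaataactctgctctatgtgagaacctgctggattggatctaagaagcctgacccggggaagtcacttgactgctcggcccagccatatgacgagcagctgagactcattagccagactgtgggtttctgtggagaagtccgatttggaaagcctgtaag
Rab28, chr5:41708130-41708429, minus strand: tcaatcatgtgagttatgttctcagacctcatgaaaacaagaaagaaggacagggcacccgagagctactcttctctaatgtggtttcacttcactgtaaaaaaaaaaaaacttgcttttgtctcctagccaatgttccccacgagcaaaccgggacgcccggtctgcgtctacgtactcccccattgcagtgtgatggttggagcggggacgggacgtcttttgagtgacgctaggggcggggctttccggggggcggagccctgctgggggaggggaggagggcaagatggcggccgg

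The Rab24 window held 5 matches, a number reached by 1.66% of all windows and by 4 windows of Rab genes (Rab5a, Rab10, Rab20 and Rab24). The Rab27a windows held 1 and 2 matches and the Rab28 window held 0, as did 56.2% of all windows. Windows were found for 46 of the 55 Rab genes, and 29 of their 58 windows held a match (50%), against 43.8% of 32851 windows of 27025 genes. ACGTG was in 22.4% of Rab windows and 19.6% of all, and GCGTG in 36.2% and 32.4%. Rab10, with 5 or more matches, fell with overexpression, and Rab5a and Rab20, also with 5 or more, did not pass the test in that direction or the other. A match describes letters in the window and shows no binding.

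With HIF-1α overexpression, 9 of 48 Rab genes were higher than in the control, 21 were lower and 18 did not pass the test. The 30 called genes are 62.5% of those tested, against 55.3% of all genes, so calls were common everywhere on these arrays. The split leaned to lower levels: 25.8% of all genes were called higher and 29.4% lower. The median Rab difference was -0.17 on the log2 scale and that of all genes -0.02. On the offset scale, at least 2-fold differences (Rab24 and Rab27a higher, Rab9b and Rab11a lower) made up 8.33% of Rab genes and 8.28% of all genes. The offset shrinks dim probes: with intensities floored at 16 instead, Rab3b (-1.97), Rab36 (-1.52), Rab9 (-1.39) and Rab10 (-1.34) were past 2-fold as well. Flooring enlarges the differences of other dim genes too. The share of all genes past 2-fold was not counted on that scale, so these genes cannot be set against the 8.28%.

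With knockdown, 13 Rab genes were higher than in the control, 19 were lower and 16 did not pass. The 32 called genes are 66.7%, against 59.7% of all genes, of which 31.3% were called higher and 28.3% lower. The median Rab difference was -0.09 and that of all genes -0.0022. On the offset scale, at least 2-fold differences were found for 6 genes (Rab31 and Rab34 higher; Rab3d, Rab28, Rab27a and Rab24 lower), 12.5% of Rab genes against 8.72% of all genes. With intensities floored at 16, Rab32 (1.78), Rab1b (-1.01) and Rab39b were past 2-fold as well, and Rab29 was at least 2.40-fold lower. Here too the share of all genes was not counted on that scale, so these genes cannot be set against the 8.72%. Rab39b ran from 24.9 to 52.8 on knockdown arrays and from 71.9 to 120 on control arrays. Between overexpression and knockdown 14 were higher and 19 lower (68.8%, against 62.7% of all genes, 28.8% higher and 34% lower), 7 of them by at least 2-fold (14.6%, against 13.6%). These 3 comparisons share their arrays, so their counts are not independent of one another.

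**Figure D2:**
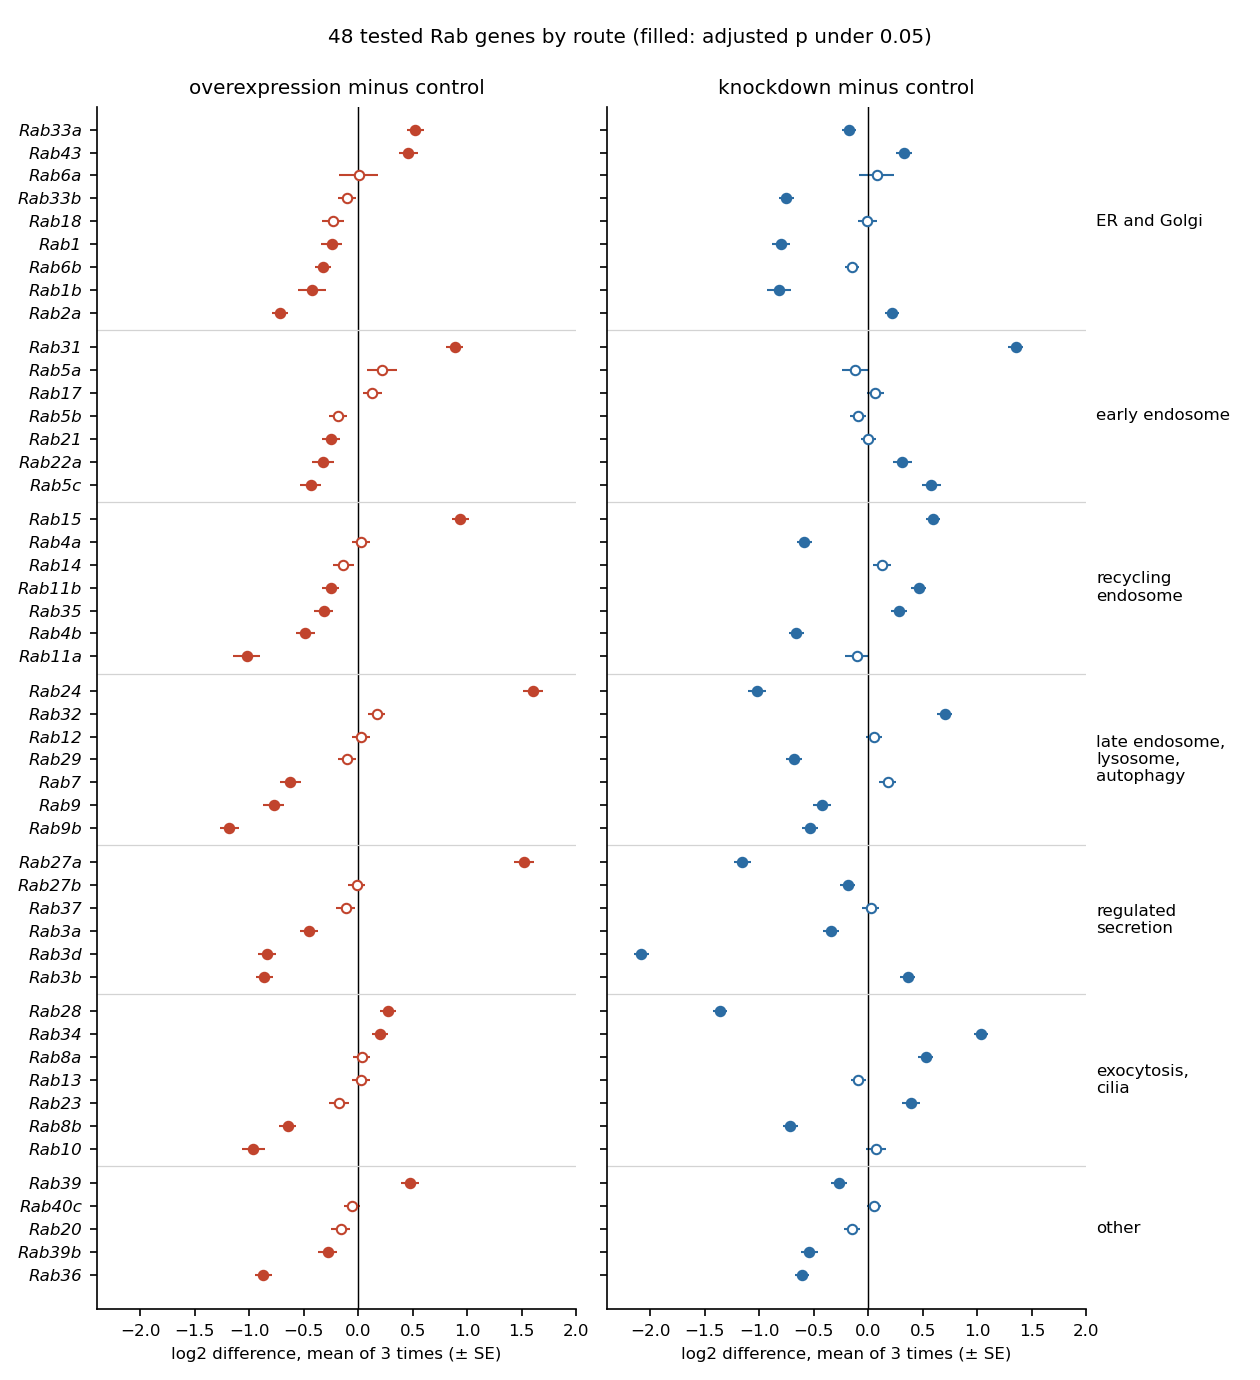
Log2 difference from the control of each tested Rab gene, overexpression and knockdown side by side and grouped by route, with error bars of 1 SE and filled points where adjusted p is under 0.05. Rab24 and Rab27a lie at 1.60 and 1.52 with overexpression and at -1.03 and -1.16 with knockdown.

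The counts by route that follow rest on 5 to 9 tested genes each and are to be read against the 55.3% of all genes called with overexpression and the 59.7% called with knockdown. Among the 6 tested Rabs of regulated secretion and synaptic vesicles, 1 was higher and 3 lower with overexpression, and 1 was higher and 4 lower with knockdown. Rab3d, which marks secretory granules, had the largest knockdown difference of all Rab genes. Its intensities were 2723, 2816, 2676 and 2808 with overexpression, 952 to 1224 with a median of 1138 with knockdown, and 4392 to 5355 with a median of 5114 in the control. Both constructs thus lay below every control array, and knockdown lay below overexpression. The knockdown level was 4.24-fold lower (log2 -2.08, SE 0.0709, adjusted p = 5.64e-16) and the overexpression level 1.79-fold lower (log2 -0.84, SE 0.0819, adjusted p = 1.94e-08).

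Rab3a, the main Rab of synaptic vesicles, fell with both constructs as well. It had 4801, 5437, 4935 and 4198 with overexpression, 4561 to 5448 with knockdown and 5483 to 7015 in the control, where the lowest control array was only just above the others. The differences were -0.45 with overexpression (adjusted p = 9.90e-05) and -0.34 with knockdown (adjusted p = 0.000379), and overexpression and knockdown differed by -0.11 (adjusted p = 0.251). The neuronal marker sum was below the control with overexpression (21212 to 23131, against 39687 to 46459) but overlapped it with knockdown (40203 to 43259). Stmn2 makes up the largest part of that sum. Single neuronal markers moved with knockdown too: Prph fell by 1.38 (adjusted p = 1.57e-12), Tubb3 fell by 0.27 and Isl1 rose by 0.97. With overexpression the markers did not move alike. Stmn2 fell by 1.54, Prph by 1.30, Avil by 0.75 and Pou4f1 by 0.24, while Isl1 rose by 0.88 (adjusted p = 2.26e-09). Tubb3 was not called with overexpression. Rab3b, a paralog of Rab3a, went apart from both: it read 0.830, 9.82, 1.05 and 8.36 with overexpression, none above background, 87.3 to 114 with knockdown and 47.6 to 78.4 in the control. Counting a reading at or under 16 as 16, Rab3b was at least 3.93-fold lower with overexpression than in the control (adjusted p = 7.97e-09) and at least 6.26-fold lower than with knockdown (adjusted p = 1.72e-11). Knockdown raised it by 0.36 (adjusted p = 0.00011).

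In the early endosome group all 7 genes were tested. With overexpression 1 was higher and 3 were lower, and with knockdown 3 were higher and 0 lower. Rab31, a Rab5 relative of endosomes and the trans-Golgi, was high with both constructs: 2208, 2098, 1923 and 2519 with overexpression, 2890 to 3318 with a median of 3088 with knockdown, and 1027 to 1248 with a median of 1211 in the control. Neither construct overlapped the control. Its differences were 0.88 (SE 0.0764, adjusted p = 2.91e-09) with overexpression and 1.35 (SE 0.0662, adjusted p = 2.15e-13), or 2.55-fold, with knockdown.

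The Rab5 isoforms did not share a pattern. Rab5c had 1433, 1587, 1645 and 1278 with overexpression, 2591 to 3329 with knockdown and 1619 to 2291 in the control. It fell by 0.43 with overexpression (adjusted p = 0.000644), rose by 0.58 with knockdown (adjusted p = 4.04e-06), and was 2.02-fold lower with overexpression than with knockdown. Rab5a had 1119, 936, 836 and 1038 with overexpression, 523 to 1014 with knockdown and 772 to 970 in the control, and the 3 constructs overlapped. It differed from the control by 0.22 with overexpression (95% interval -0.06 to 0.50, adjusted p = 0.181) and by -0.13 with knockdown (-0.37 to 0.12, adjusted p = 0.377). Without knockdown uninjured replicate 2 the knockdown difference was -0.27 (adjusted p = 0.0208). Overexpression exceeded knockdown by 0.35 (adjusted p = 0.0316). That call was lost, at 0.20 to 0.33, when any one of 6 arrays was left out (overexpression uninjured, 3 h replicate 1 or 12 h; knockdown uninjured replicate 1, 3 h replicate 1 or 12 h replicate 2). It was lost too with intensities floored at 16 (adjusted p = 0.125), an offset of 16 (0.0824) and a trended, robust prior (0.0947). With only the arrays compared, the overexpression difference was called (adjusted p = 0.0412). Rab5b was dim, at 24.6 to 73.6 over all arrays, and passed neither test against the control. Rab22a, an early endosome Rab close to Rab31, fell by 0.32 with overexpression and rose by 0.31 with knockdown.

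Of the 7 tested recycling endosome Rabs, 1 was higher and 4 were lower with overexpression, and 3 were higher and 2 lower with knockdown. Rab15, a neuronal Rab that slows endocytic recycling, was the one that rose with both constructs. It had 2533, 2210, 2097 and 2320 with overexpression, 1685 to 2144 with knockdown and 1098 to 1309 in the control, with differences of 0.94 with overexpression (adjusted p = 8.05e-10) and 0.60 with knockdown (adjusted p = 6.8e-08). Rab11a, the best known recycling Rab, had 76.4, 59.7, 114 and 59.1 with overexpression, 137 to 272 with knockdown and 187 to 305 in the control. It was 2.04-fold lower with overexpression (log2 -1.03, SE 0.127, adjusted p = 6.55e-07) and differed by -0.11 with knockdown (-0.34 to 0.12, adjusted p = 0.426).

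Rab11b, its close paralog, had 5792, 6535, 6025 and 6350 with overexpression, 9369 to 10762 with knockdown and 6525 to 8020 in the control. It fell by 0.25 with overexpression (adjusted p = 0.00954) and rose by 0.46 with knockdown (adjusted p = 5.04e-06). The Rab4 pair, which returns cargo quickly to the surface, fell with knockdown: Rab4a by 0.59 (adjusted p = 2.65e-07) and Rab4b by 0.66 (adjusted p = 7.33e-08). With overexpression Rab4a differed by 0.03 (adjusted p = 0.806), while Rab4b fell by 0.48 (adjusted p = 4.30e-05). Rab35, of fast recycling and neurite outgrowth, fell by 0.32 with overexpression and rose by 0.28 with knockdown.

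For the 7 tested Rabs of late endosomes, lysosomes and autophagy, 1 was higher (Rab24) and 3 were lower with overexpression, and 1 was higher and 4 were lower with knockdown. Rab9b, of the Rab9 pair that acts between late endosome and trans-Golgi, had the largest overexpression fall of the Rab genes on the offset scale. Its intensities were 864, 1018, 925 and 864 with overexpression, 1195 to 1843 with a median of 1412 with knockdown, and 2067 to 2211 with a median of 2117 in the control. The 3 constructs did not overlap, and the differences were -1.18 (2.27-fold lower, SE 0.0835, adjusted p = 1.16e-10) with overexpression and -0.53 (adjusted p = 1.55e-06) with knockdown. Rab9 itself fell by 0.78 with overexpression and by 0.43 with knockdown, and both its probes were called lower. The rank of Rab9b holds on the offset scale only, which shrinks dim genes. Rab3b was at least 3.93-fold lower with overexpression. Over all settings tried, the largest overexpression falls of Rab11a (-1.59), Rab36 (-1.52), Rab9 (-1.39) and Rab10 (-1.34) also passed that of Rab9b (-1.24).

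Rab7, the organiser of late endosomes and of long-range axonal transport, had 2175, 2152, 2254 and 2189 with overexpression, 3463 to 4392 with knockdown and 3039 to 4177 in the control. It fell by 0.62 with overexpression (adjusted p = 9.61e-06). That fall rests on 1 of its 3 probes: the others differed by 0.10 and 0.05 with no call, and the mean of the 3 differed by -0.16 (adjusted p = 0.162). With knockdown it differed by 0.17 (0.0039 to 0.35, adjusted p = 0.0728), and adjusted p was 0.0236 to 0.0425 when any one of 4 single arrays was left out (knockdown uninjured replicate 1, knockdown 3 h replicate 1, control 3 h replicate 2 or control 12 h replicate 2). It was also called with the replicate block (adjusted p = 0.0343) and with a trended, robust prior (adjusted p = 0.0355). Rab32, of mitochondria and lysosome-related organelles, rose with knockdown by 0.70 (adjusted p = 1.22e-08), with 51.9 to 78.0 on knockdown arrays and 3.66 to 24.6 on control arrays. Rab29, of the trans-Golgi and lysosome, was above background on 0 knockdown arrays (-9.41 to 2.35), against 23.6 to 49.0 in the control. With readings at or under 16 counted as 16, it was at least 2.40-fold lower with knockdown (adjusted p = 5.46e-08).

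Of the 9 tested Rabs between endoplasmic reticulum and Golgi or within the Golgi, 2 were higher and 4 lower with overexpression, and the same counts held with knockdown. Rab2a, of traffic between endoplasmic reticulum and Golgi, had 5437, 6505, 5634 and 5602 with overexpression, 10461 to 11812 with knockdown and 8989 to 10276 in the control, with no overlap. It fell by 0.72 with overexpression (adjusted p = 3.72e-08) and rose by 0.22 with knockdown (adjusted p = 0.00595). Rab1 and Rab1b, of transport from the endoplasmic reticulum, fell with both constructs, more so with knockdown. Rab1 had 638, 522, 550 and 609 with overexpression, 354 to 472 with knockdown and 581 to 858 in the control, with differences of -0.24 with overexpression and -0.80 with knockdown. Rab1b fell by 0.42 with overexpression and by 0.82 with knockdown, but its 3 probes did not move alike. With overexpression the other two differed by 0.02 and -0.03 with no call, so that fall rests on 1 probe. The knockdown differences of the other two were -0.30 and -0.04, and the mean of all probes differed by -0.39 with knockdown. Rab33b, a Golgi Rab that binds an autophagy complex, fell with knockdown by 0.76 (adjusted p = 5.94e-09) and differed by -0.10 with overexpression (adjusted p = 0.292). Rab43, of the Golgi, was dim and rose by 0.46 with overexpression and by 0.33 with knockdown.

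Of the 7 Rabs of exocytosis and cilia, 2 were higher and 2 lower with overexpression, and 3 were higher and 2 lower with knockdown. Rab34, which acts in cilium formation and lysosome positioning, had 477, 418, 436 and 408 with overexpression, 721 to 921 with a median of 831 with knockdown, and 350 to 398 with a median of 371 in the control. It was 2.05-fold higher with knockdown (log2 1.04, SE 0.0636, adjusted p = 8.38e-12) and rose by 0.20 with overexpression (adjusted p = 0.0260). Its other probes also rose with knockdown and were not called with overexpression. The fibroblast marker sum was also highest on knockdown arrays (6847 to 8566, against 4211 to 4767 in the control), but lower than the control with overexpression. Rab8a and Rab8b, paralogs of exocytosis and cilia, parted: Rab8a rose by 0.53 with knockdown and differed by 0.03 with overexpression, while Rab8b fell by 0.65 with overexpression and by 0.72 with knockdown. Rab10, of exocytosis and axon growth, fell by 0.96 with overexpression (adjusted p = 1.14e-07), with 90.8 to 126 on those arrays and 179 to 389 in the control. The second Rab10 probe differed by -0.05 with no call. Rab23, a ciliary Rab that restrains Hedgehog signalling, was dim and rose by 0.39 with knockdown.

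Of the 5 remaining tested Rabs, 1 was higher and 2 lower with overexpression, and 0 were higher and 3 lower with knockdown. Rab36, of late endosome and Golgi positioning, fell by 0.87 with overexpression and by 0.61 with knockdown, with 38.0, 62.0, 77.3 and 63.9 on overexpression arrays, 65.4 to 96.5 on knockdown arrays and 133 to 172 on control arrays. Rab39b, a neuronal Rab, fell by 0.28 with overexpression and by 0.54 with knockdown. Rab20, which is known as a hypoxia-induced gene in other cells, stayed near background: it was above 16 on 0 of 4 overexpression arrays (8.68 to 13.0), 2 of 6 knockdown arrays and 3 of 6 control arrays. Its overexpression difference was -0.16 (-0.34 to 0.02, adjusted p = 0.122), and that of knockdown -0.15 (adjusted p = 0.0971), or -0.21 without knockdown uninjured replicate 2 (adjusted p = 0.0233) and -0.19 without control uninjured replicate 2 (adjusted p = 0.0420).

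Across the groups, 4 Rab genes had all arrays of both constructs above the control (Rab15, Rab31, Rab34 and Rab43; 8.33%, against 7.06% of all genes). The reverse held for 7 (Rab1b, Rab3a, Rab3d, Rab4b, Rab8b, Rab9b and Rab36; 14.6%, against 7.52%). Rab12, Rab13, Rab14, Rab17, Rab18, Rab37 and Rab40c, beside Rab5a, Rab5b, Rab6a and Rab20, passed the test against the control with neither construct. Rab6a is counted here by its brightest probe only, and its other probes, given below, were called. The overexpression and knockdown arrays did not overlap for 26 Rab genes (54.2%, against 48.1% of all genes).

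**Figure D3:**
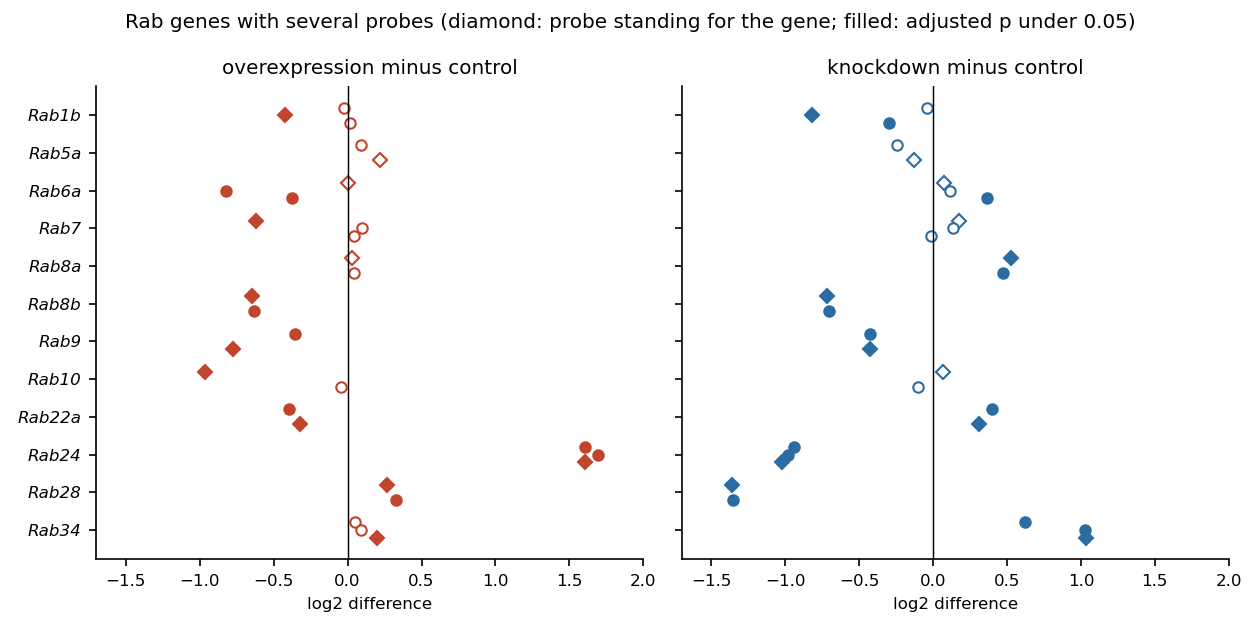
Log2 difference of every passing probe of the 12 Rab genes with several passing probes, for overexpression and knockdown against the control, with a diamond for the probe that stands for the gene and filled points where adjusted p is under 0.05. The 3 Rab24 probes lie together, while 1 of 2 Rab10 probes lies at -0.96 and the other at -0.05 with overexpression.

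Of the 20 Rab genes with several probes, 12 had more than one that passed the filter. No gene had probes called in opposite directions in any of the 3 construct comparisons. All passing probes of a gene were called the same way for 5 genes with overexpression, 7 with knockdown and 6 between overexpression and knockdown. Rab6a, of traffic within the Golgi, was not called with its brightest probe (0.00 with overexpression, adjusted p = 0.992, and 0.07 with knockdown), while its other probes fell by 0.82 and 0.38 with overexpression. With knockdown the first of these other probes differed by 0.11 with no call and the second rose by 0.36. Cross-hybridisation between paralogs, such as the Rab3, Rab5 and Rab11 groups, was not tested.

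No Rab gene passed the test after axotomy. Of 48 genes, 0 were called at 3 h (background 0.0359% of all genes, 4 genes) and 0 at 12 h (0.538%, 60 genes), averaged over the constructs. At an unadjusted p under 0.05 there were 2 Rab genes at 3 h and 5 at 12 h, against 7.7% and 12.4% of all genes. Differences ran from -0.17 to 0.18 at 3 h and from -0.23 to 0.23 at 12 h. On the offset scale, the 95% intervals of all 48 lay within 2-fold at both times, with a largest bound of 0.42 at 3 h and 0.43 at 12 h. These bounds do not hold for dim genes on other scales: with intensities floored at 16, Rab5b differed by 0.58 at 12 h and Rab27b by -0.47 at 3 h, neither called. Among the genes with the smallest p, Rab4b differed by 0.16 at 3 h and 0.23 at 12 h (adjusted p = 0.646 and 0.239). Rab39 and Rab27b differed by -0.17 each at 3 h (adjusted p = 0.609), and at 12 h Rab5b differed by 0.23 and Rab9 by -0.23 (adjusted p = 0.241 and 0.316).

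No Rab gene passed the test for a response to axotomy that differed between constructs. The interaction of construct and time was called for 0 of 48 Rab genes with overexpression and 0 with knockdown (limma F tests; background 0% of all genes in both). At an unadjusted p under 0.05 there were 5 and 2 Rab genes, against 5.78% and 5.81% of all genes, and the smallest adjusted p was 0.628 and 0.817. Only 1 array stands for overexpression uninjured and 1 for overexpression at 12 h, which limits that comparison. The plot of all comparisons sets the width of the construct differences beside those of axotomy.

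**Figure D4:**
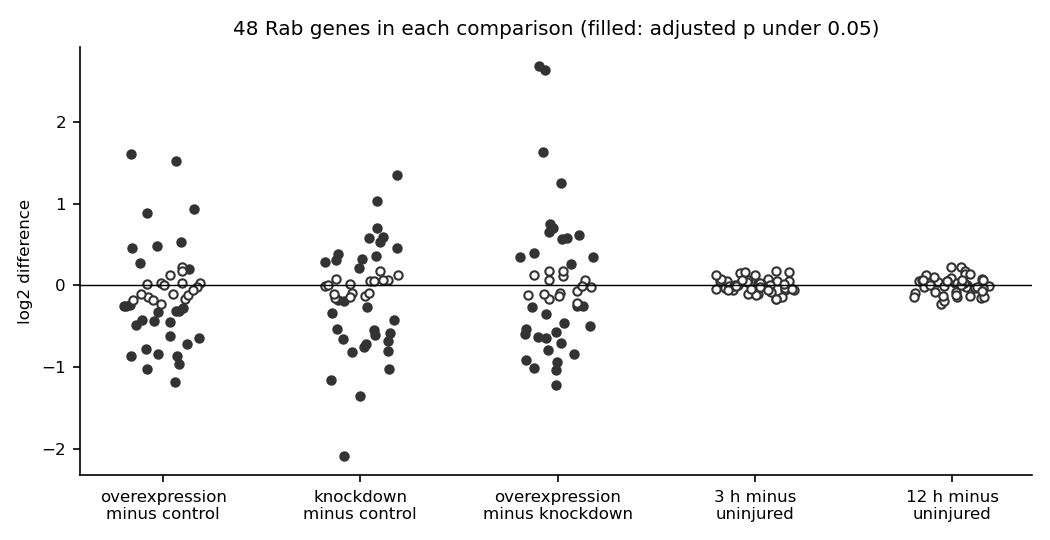
Log2 differences of the 48 tested Rab genes in 5 comparisons, a point for each gene, filled where adjusted p is under 0.05. Construct differences reach from -2.08 to 2.68, while those of axotomy stay between -0.23 and 0.23 with no filled point.

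Genes that act on Rabs were counted from lists chosen for this family, to be read against the 55.3% of all genes called with overexpression and the 59.7% called with knockdown. Counted in either direction, the GEF and effector genes lie near those shares, while fewer Rab cycle genes were called with overexpression. By direction, 25.8% of all genes were called higher and 29.4% lower with overexpression. The effectors leaned to lower levels there, with a median difference of -0.16 against -0.02 for all genes. No list was tested as a set. Of 9 tested genes of the Rab cycle (prenylation, escort and GDI), 1 was higher and 1 lower with overexpression, and 4 were higher and 2 lower with knockdown. Rabggta, a subunit of the enzyme that lipidates most Rabs, rose by 0.60 with overexpression (adjusted p = 2.11e-05) and was 0.97 higher than with knockdown. Of 32 GEF genes 7 were higher and 10 lower with overexpression, and 11 higher and 8 lower with knockdown. Rin1, which activates Rab5, averaged 792 ± 176 with overexpression (SD, n = 4), 70.3 ± 30.4 with knockdown and 21.4 ± 12.1 in the control (SD, n = 6 each), a log2 difference of 3.32 (adjusted p = 7.36e-18). Ccz1, part of the Rab7 activator, fell by 0.99 with knockdown, and Trappc1, of a complex that activates Rab1, fell by 1.25.

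Of 32 TBC domain GAP genes 6 were higher and 11 lower with overexpression, and 6 higher and 10 lower with knockdown. Tbc1d20, which inactivates Rab1, fell by 1.09 with knockdown and was 2.54-fold higher with overexpression than with knockdown. Of 45 effector genes 7 were higher and 20 lower with overexpression, and 13 higher and 12 lower with knockdown. Appl1, a Rab5 effector of signalling endosomes, averaged 2740 ± 197 with overexpression, 664 ± 33.0 with knockdown and 701 ± 33.4 in the control, and was 3.72-fold higher with overexpression (adjusted p = 1.06e-14). Sytl2, an effector of Rab27 proteins that tethers vesicles, was 3.62-fold lower with overexpression (log2 -1.86, adjusted p = 1.59e-14), with means of 609 ± 128 with overexpression, 1528 ± 219 with knockdown and 2233 ± 121 in the control. Its mean was lowest in the cultures where Rab27a rose, and was also below the control with knockdown, where Rab27a fell. Exoc6, an exocyst subunit that binds Rab11, fell by 1.31 with overexpression. Sytl3, another Rab27 effector, fell by 0.86 with knockdown, and Gcc2, a golgin that binds several Rabs, fell by 1.04. At 12 h after axotomy 1 GEF gene was called higher and no gene of the other 3 lists was called.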

How the data were processed

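RNA of 16 samples was measured, 1 array each. Per the submitters' processing notes the authors used GenomeStudio, with no version or settings named. The deposited table holds an intensity for each probe and array, and its form is that of background-subtracted, quantile-normalized values on a linear scale. Symbols came from the annotation of a second deposited file, whose 32 value columns could not be tied to samples and were not used. Symbols were updated with RefSeq genes of GRCm38.p6 (20733 probes current, 3872 updated, 1092 kept as given).

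With limma 3.58.1 under R 4.3.3, intensities were passed through normexp (offset 50) and quantile normalization, then log2-transformed. Probes over 16 on at least 2 arrays were kept (15086), the brightest probe standing for each of 11151 genes. That cutoff left 0.638% of a normal background (SD 6.42, from the values below 0). The fit gave each of the 9 groups of construct and time its own mean (7 residual degrees of freedom). Construct contrasts weighted the times equally, axotomy contrasts the constructs, and F tests gave the interactions. Scripts were tested on simulated data. The number of arrays limits the precision.

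The Rab genes and all lists were chosen with earlier results of these data known. Named were, in each construct comparison, the 8 largest called rises and falls, in each axotomy comparison the 3 smallest p, the genes under the filter, Rab20, Rab3a, Rab5a, Rab7, Rab11a and Rab27a, and up to 3 genes of each regulator list. Rab6a, Rab22a, Rab35 and Rab39b were added after their values were seen, and Rab29 was also outside these rules. Rab4b and Rab27b were named by the axotomy rule, and their construct differences were added after their values were seen. The promoter of Rab24, the largest overexpression rise, followed the rule. Both Rab27a starts and Rab28 were added afterwards. Alternatives were another floor, offset, scaling, filter, probe rule, prior, sample set and replicate block, and leaving out each array.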

Additional observations from a re-analysis of the deposited data

Results flagged for a closer look

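Within the knockdown and control groups, 7 readings of named Rab genes lay apart from the other arrays of their construct by Dixon's 95% criterion, among 102 groups tested. Chance gives about 1 in 20 groups. Rab1 read 472.081 on knockdown 3 h replicate 2, above the other knockdown arrays. Rab3d read 952.212 on knockdown 3 h replicate 1, Rab10 read 224.232 on knockdown 12 h replicate 1, and Rab33b read 353.618 on knockdown 12 h replicate 2, all below the other knockdown arrays. Rab3a read 5483.07 on control 12 h replicate 2 and Rab31 read 1027.0 on control 3 h replicate 1, both below the other control arrays. Rab11a read 305.398 on control 3 h replicate 2, above them. The groups pool the 3 times. In the comparisons for which these genes were named, no call changed when the array in question was left out. Their other comparisons, such as Rab1 and Rab33b with overexpression against the control, were not followed in this way.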

How the results depend on the processing

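Counts of called Rab genes were recomputed under 11 alternatives and without each array. Leaving out 1 array at a time gave 8 to 10 genes higher and 17 to 23 lower with overexpression, 13 to 14 higher and 17 to 20 lower with knockdown, 12 to 15 higher and 16 to 21 lower between overexpression and knockdown, and 0 in the axotomy and interaction tests. The other alternatives stayed within 1.5 times of each count, except that intensities floored at 16 gave 1 overexpression interaction (Rab17, adjusted p = 0.0409), a gene near background. Deviations of replicates correlated between groups at -0.12 to 0.24 (median 0.030, 7 of 21 above 0.1). These values do not settle whether replicate numbers pair the arrays. A fit with the replicate block gave 9 higher and 20 lower with overexpression, 14 and 19 with knockdown, and 14 and 20 between overexpression and knockdown. Signs turned only in differences not called in the main setting: leaving out 1 array gave knockdown minus control of -0.27 to 0.019 for Rab5a and -0.23 to 0.014 for Rab11a (positive without knockdown uninjured replicate 1), and overexpression minus knockdown of -0.17 to 0.078 for Rab20 (positive without overexpression uninjured replicate 1, and 0.046 without knockdown uninjured replicate 2). Single-gene values kept direction and call in 1038 refits without 1 array (7 calls were gained and 7 lost) and in 715 under the other alternatives (3 gained, 4 lost), and Rab24 and Rab27a in all that were run. Leaving out the only array of a group drops that time from the average. The precision is limited by 4 overexpression arrays and, for 9 of the 48 Rab genes, by readings near background.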
